A study of Mus musculus with 2 samples.

Results

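Checkpoint receptors and their ligands were followed across the leukocytes of mouse melanomas: the receptors Pdcd1, Lag3, Havcr2, Tigit, Ctla4 and Cd160, the factor Tox, and the ligands Cd274, Pdcd1lg2 and Lgals9. These 10 genes were set by name among the 27998 genes of the count matrices, and all 10 were found. Their UMIs (unique molecular identifiers, each standing for 1 captured transcript) were summed per library and per cell type name given by the authors. The 6 receptors and Tox were read over the 6 T and NK cell names, and the 3 ligands over the myeloid names.

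Checkpoint receptors are inhibitory proteins that T cells display after activation and keep while antigen persists. PD-1, encoded by Pdcd1, binds PD-L1 (Cd274) and PD-L2 (Pdcd1lg2) on antigen-presenting, stromal or tumour cells, and TIM-3 (Havcr2) can bind galectin-9 (Lgals9). The nuclear factor TOX maintains the exhausted state of T cells in tumours and chronic infection, in which several of these receptors are displayed together.

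The APOE4 group was 6 human APOE4 knock-in mice and the APOE2 group 6 human APOE2 knock-in mice, so all mice carry a human allele of the lipid carrier APOE. The labels used here state no age or sex. Each mouse bore a flank tumour of YUMM1.7, a transplantable mouse melanoma line, grown for 19 days from 100000 cells given in Matrigel. Live CD45+ cells, 10000 per mouse, were sorted and pooled by genotype into 1 droplet library each, so mice of a genotype cannot be told apart and no difference below has a replicate check. The comparison addresses how the host's APOE allele goes with checkpoint gene expression in leukocytes of the tumour.

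The APOE4 library held 5385 annotated cells with a median of 5560 UMIs, and the APOE2 library 4665 cells with a median of 7160 UMIs. Of the barcodes, 9 occurred in both libraries, 8 of them were annotated in both, and 0 of these had the same name in both. Levels are UMIs per 1000000 UMIs of the same cells (CPM), and ratios are APOE4 over APOE2 CPM. Brackets give 95% intervals, which cover counting error only and not the spread between mice. They are exact, save for ratios of shares of cells, where they are approximate. A gene was measured in a cell type with at least 20 UMIs over both libraries and 30 cells in each, and was counted as higher or lower past 1.5-fold. In summed counts, fewer expressing cells and less RNA per cell cannot be told apart.

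The CD8+ T cell name did not cover the same cells in both libraries. Of its 477 APOE4 cells, 445 (93.3% [90.7, 95.4]) had a UMI of Cd8a or Cd8b1 and none of Cd4, against 50 of 113 APOE2 cells (44.2% [34.9, 53.9]). Cells with Cd4 and without Cd8 UMIs were 14 (2.94%) in APOE4 and 49 (43.4%) in APOE2. Cd4 stood at 22.9 CPM in APOE4 and 321 CPM in APOE2, and Cd8a at 1002 CPM in APOE4 and 321 CPM in APOE2. The 6 T cell markers in the files all had UMIs there in both libraries and summed to 6175 CPM in APOE4 and 4564 CPM in APOE2. The neutrophil markers summed to 110.1 CPM in APOE4 and 448 CPM in APOE2. The members' levels and ratios in this name are given for the whole name and for its Cd8 cells alone, a split chosen after the data were seen. Shares of cells with a UMI and splits by Pdcd1 or Tcf7 are for the whole name.

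The name Ki67+ CD8+ T cells went against its data as well: Cd8 UMIs without Cd4 UMIs were seen in 31 of 74 APOE4 cells and 4 of 51 APOE2 cells. A UMI of Foxp3, the factor that marks regulatory T cells, was seen in 13 of the APOE4 cells and 25 of the APOE2 cells. Both M-MDSC names, which stand for monocytic suppressor cells, carried neutrophil genes. The neutrophil list summed to 38817 CPM in APOE4 and 44101 CPM in APOE2 in M-MDSC 1, where the monocyte and macrophage list summed to 918 CPM in APOE4 and 962 CPM in APOE2. The authors' names are kept below as names only.

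**Figure D1:**
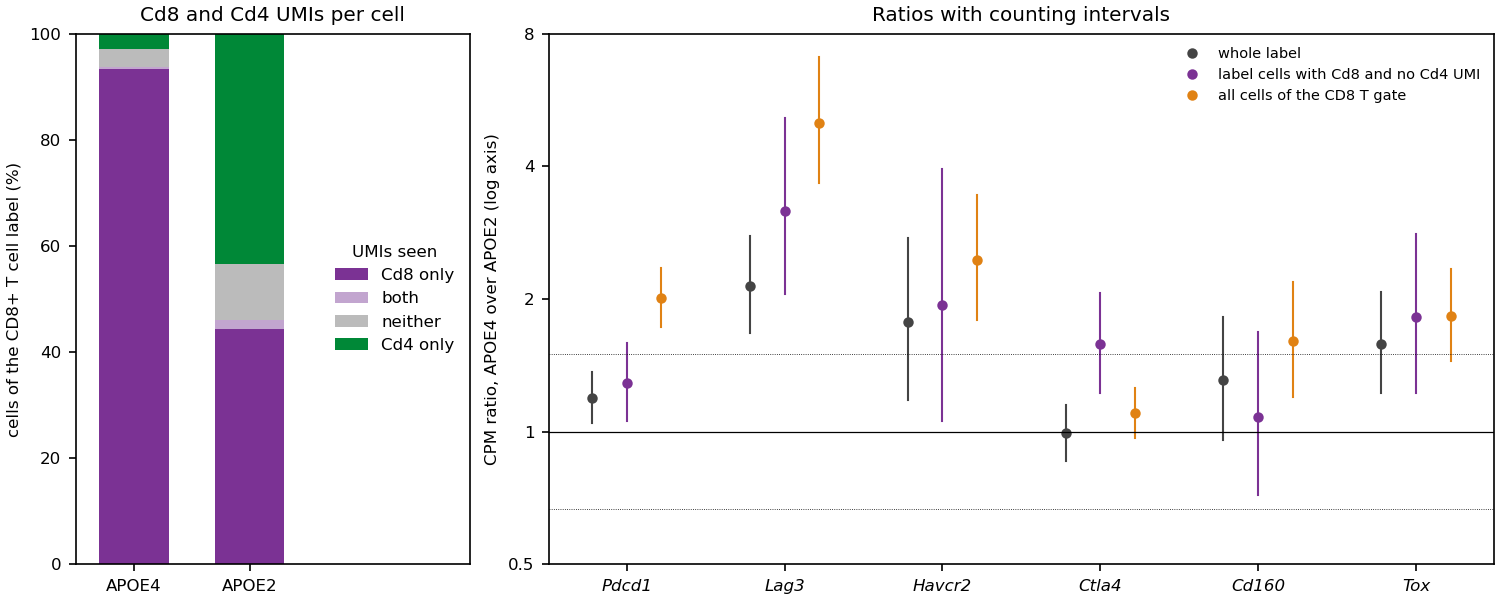
Left, cells of the CD8+ T cell name by the Cd8 and Cd4 UMIs seen in them (% of cells, APOE4 left of APOE2). Right, CPM ratios APOE4 over APOE2 of 6 members (log axis) in 3 cell sets, with exact 95% counting intervals as lines; Cd8 cells without Cd4 UMIs make up 93.3% of the APOE4 bar and 44.2% of the APOE2 bar, and the Lag3 ratio is above 2 in all 3 sets.

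In the CD8+ T cell name, 3 of the 6 measured members, Lag3, Havcr2 and Tox, were at least 1.5-fold higher in APOE4 and 0 were lower. Over all 7814 genes measured there, 12.9% were higher and 11.1% lower. Among its Cd8 cells alone, 20.7% of all measured genes were higher and 13.2% lower. In the whole name the median log2 ratio was 0.53 over the 6 members and -0.01 over all genes.

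Lag3, whose protein binds MHC class II and dampens T cell signalling, stood at 334 CPM in APOE4 (598 UMIs) and 156 CPM in APOE2 (71 UMIs), a ratio of 2.14 [1.67, 2.78]. Among Cd8 cells alone it was at 342 CPM in APOE4 and 108 CPM in APOE2, a ratio of 3.16 [2.05, 5.14]. Lag3 had the highest ratio of the 6 measured members both in the whole name and in its Cd8 cells. In the 49 Cd4 cells of the APOE2 library that bear the CD8+ name, Lag3 was at 229 CPM.

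Havcr2, which activated T cells and myeloid cells express, was at 105 CPM in APOE4 (188 UMIs) and 59.4 CPM in APOE2 (27 UMIs), a ratio of 1.77 [1.18, 2.76]. Its ratio among Cd8 cells was 1.93 [1.06, 3.94], from 186 UMIs in APOE4 and 11 in APOE2. Tox was at 240.2 CPM in APOE4 (430 UMIs) and 152 CPM in APOE2 (69 UMIs), a ratio of 1.58 [1.23, 2.07]. Among Cd8 cells Tox stood at 243 CPM in APOE4 and 134 CPM in APOE2, a ratio of 1.82 [1.22, 2.82]. For both genes the interval lay above 1 with and without the Cd4 cells.

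Pdcd1 was above APOE2 in APOE4 by less than 1.5-fold, at 717 CPM in APOE4 (1283 UMIs) and 600.1 CPM in APOE2 (273 UMIs), a ratio of 1.19 [1.05, 1.37]. Among Cd8 cells it was at 711 CPM in APOE4 and 551 CPM in APOE2, a ratio of 1.29 [1.06, 1.59]. The CD8+ name had the highest Pdcd1 level of all names in both libraries, followed by the CD4+ name, with intervals that did not overlap.

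Ctla4, the receptor that competes with CD28 for CD80 and CD86, gave different answers by cell set. In the whole name it was at 512 CPM in APOE4 (916 UMIs) and 517 CPM in APOE2 (235 UMIs), a ratio of 0.991 [0.857, 1.15]. Among Cd8 cells it was at 519.9 CPM in APOE4 and 329 CPM in APOE2, a ratio of 1.58 [1.22, 2.07]. The Cd4 cells that bear the CD8+ name in APOE2 held Ctla4 at 642 CPM.

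Cd160, a receptor for HVEM, was at 138 CPM in APOE4 (247 UMIs) and 106 CPM in APOE2 (48 UMIs), a ratio of 1.31 [0.957, 1.82], and its ratio among Cd8 cells was 1.08 [0.718, 1.68]. Tigit, whose protein binds the poliovirus receptor, had 16 UMIs in the APOE4 cells and 3 in the APOE2 cells and was not measured. A difference in Tigit was not detectable at this depth.

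A gate that took every annotated cell with a Cd3 UMI, a Cd8 UMI and no Cd4 UMI, whatever its name, held 707 APOE4 cells and 120 APOE2 cells. There Lag3 had a ratio of 5.02 [3.66, 7.07], Havcr2 2.46 [1.79, 3.45], Pdcd1 2.01 [1.72, 2.35], Tox 1.83 [1.45, 2.33] and Cd160 1.6 [1.2, 2.18]. Ctla4 had 1.1 [0.966, 1.26]. Pdcd1 and Cd160, within 1.5-fold in the CD8+ name, were past it in the gate. The gate takes in 134 APOE4 cells and 28 APOE2 cells of the name Diverse, a cluster that the authors gave no type. Of all cells of that name, 114 of 270 in APOE4 and 59 of 211 in APOE2 were among the 5% of cells with the highest doublet scores. Cells of cDC 2 and Monocytic DCs add 17 and 13 in APOE4, and 5 and 5 in APOE2. Restricted to the CD8+ name, the gate held 445 APOE4 and 50 APOE2 cells, the same Cd8 cells as above. Its ratios are therefore those already given, 3.16 [2.05, 5.14] for Lag3, 1.29 [1.06, 1.59] for Pdcd1 and 1.08 [0.718, 1.68] for Cd160.

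**Figure D2:**
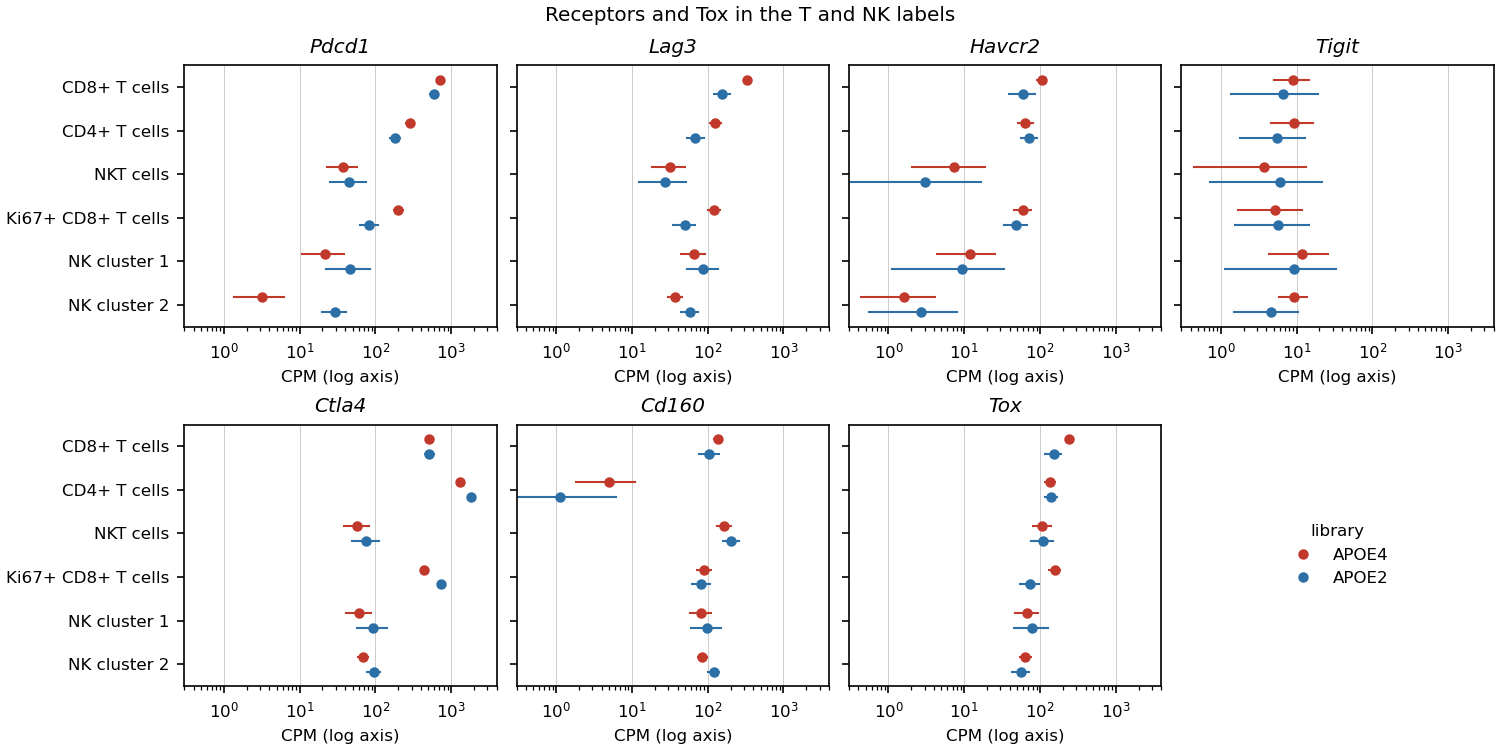
CPM (log axis) of the 6 receptors and Tox in the 6 T and NK names, with the APOE4 point above the APOE2 point and exact 95% counting intervals as lines. Pdcd1 is highest in the CD8+ name (717 CPM in APOE4 and 600.1 CPM in APOE2) and Ctla4 in the CD4+ name (1328 CPM in APOE4 and 1855 CPM in APOE2).

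Shares of cells with a UMI were compared after thinning each cell to 1500 UMIs, which kept 472 APOE4 and 111 APOE2 cells of the CD8+ name and left out 5 and 2. A Pdcd1 UMI was then seen in 56.4% of APOE4 and 48.6% of APOE2 cells, Lag3 in 33.1% of APOE4 and 18.9% of APOE2 cells and Havcr2 in 12.5% of APOE4 and 3.6% of APOE2 cells. Tox was seen in 27.1% of APOE4 and 18% of APOE2 cells, Cd160 in 16.7% of APOE4 and 8.11% of APOE2 cells and Ctla4 in 44.1% of APOE4 and 48.6% of APOE2 cells. Without thinning, at median depths of 3456 UMIs in APOE4 and 3530 UMIs in APOE2, a Pdcd1 UMI was seen in 75.5% of APOE4 and 69.9% of APOE2 cells, Lag3 in 56.6% of APOE4 and 30.1% of APOE2 cells and Ctla4 in 64.6% of APOE4 and 67.3% of APOE2 cells. The ratio of thinned shares was 1.75 [1.16, 2.62] for Lag3, 3.47 [1.29, 9.35] for Havcr2 and 1.16 [0.942, 1.42] for Pdcd1.

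Monocytes and macrophages, which should lack most of these receptors, give a background level, in which free RNA and doublets cannot be told apart. No Cd3 UMI was seen in 1479 of 1557 such cells in APOE4 and 1655 of 1734 in APOE2. At the same 1500 UMIs, from median depths of 7046 UMIs in APOE4 and 8010 UMIs in APOE2, a Pdcd1 UMI was seen in 0.523% of APOE4 and 0.234% of APOE2 cells. Lag3 was seen in 0.327% of APOE4 and 0.351% of APOE2 cells, Ctla4 in 1.11% of APOE4 and 0.994% of APOE2 cells, Tox in 0.262% of APOE4 and 0.0585% of APOE2 cells and Cd160 in 0.131% of APOE4 and 0.0585% of APOE2 cells. The shares in the CD8+ name were above these for all 5. Havcr2 cannot be set against this level, since myeloid cells express it.

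Of the receptors Pdcd1, Lag3, Havcr2, Tigit and Ctla4, UMIs of 2 or more were seen in 46.6% [42, 51.2] of APOE4 cells and 36.9% [28, 46.6] of APOE2 cells of the CD8+ name at 1500 UMIs. The ratio of these shares was 1.26 [0.971, 1.64]. Among Cd8 cells the shares were 47.6% [42.9, 52.4] of 441 APOE4 cells and 32.7% [19.9, 47.5] of 49 APOE2 cells. The APOE4 share was the higher in both cell sets, with overlapping intervals. In the CD4+ name the shares were 23.6% [18.9, 28.9] in APOE4 and 28.1% [22.3, 34.4] in APOE2, the APOE2 one the higher. In the Ki67+ CD8+ name they were 20.3% [11.8, 31.2] in APOE4 and 11.8% [4.44, 23.9] in APOE2. At 2500 UMIs, which fewer cells reach, the shares in the whole CD8+ name were 69.9% [65.2, 74.3] in APOE4 and 48.4% [37.9, 59] in APOE2.

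**Figure D3:**
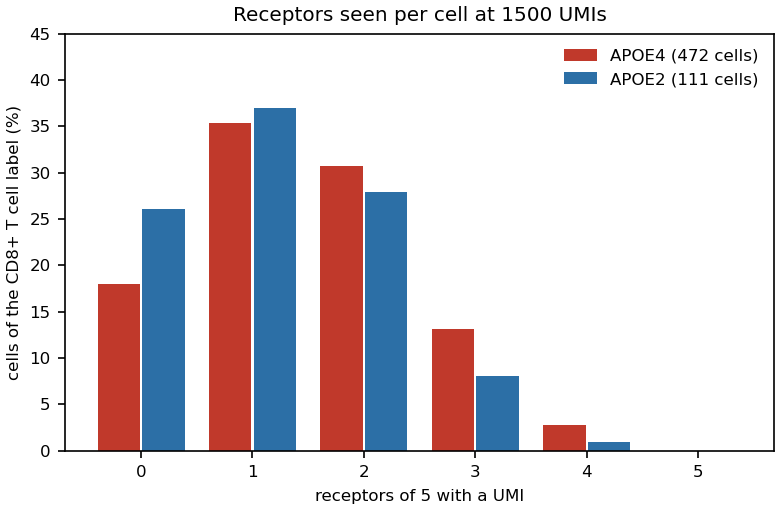
Share of cells of the CD8+ T cell name (y, %) by how many of 5 receptors had a UMI (x) after thinning each cell to 1500 UMIs, for 472 APOE4 and 111 APOE2 cells. Cells with none of the 5 were 18% in APOE4 and 26.1% in APOE2, and cells with 3 were 13.1% and 8.11%.

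Within the CD8+ name, cells thinned to 1500 UMIs were split by a Pdcd1 UMI. In APOE4, cells with one had Lag3 at 376 CPM [318, 441] and cells without one at 229.8 CPM [179, 289.8]. Havcr2 was at 120.3 CPM [88.7, 159.5] in APOE4 cells with a Pdcd1 UMI and 64.7 CPM [39.5, 99.96] in those without. Both receptors had the higher level beside Pdcd1, with overlapping intervals for Havcr2. Tcf7, the factor of stem-like memory T cells, ran the other way in APOE4, at 65.2 CPM [42.6, 95.5] with and 139 CPM [101, 187] without a Pdcd1 UMI. In APOE2 Havcr2 was at 24.7 CPM [2.99, 89.2] with and 35.1 CPM [7.24, 103] without a Pdcd1 UMI, the reverse of its order in APOE4. Lag3 in APOE2 was at 209.9 CPM [122, 336] with and 81.9 CPM [32.9, 169] without, and Tcf7 at 98.8 CPM [42.6, 195] with and 222 CPM [134, 347] without. For Lag3 and Tcf7 the order was the same in both libraries, with overlapping intervals in APOE2 where cells were few. APOE4 cells with a Tcf7 UMI had Tox at 67.8 CPM [24.9, 148], against 265 CPM [226, 308] in cells without. These cells share 1 library per genotype, so the values describe the library.

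In the CD4+ T cell name, with 303 APOE4 and 237 APOE2 cells, 2 of the 5 measured members, Pdcd1 and Lag3, were at least 1.5-fold higher in APOE4 and 0 were lower. Of all genes there, 9.69% were higher and 7.64% lower. The median log2 ratio was -0.04 over the members and 0.01 over all genes. Pdcd1 was at 285 CPM in APOE4 (343 UMIs) and 184 CPM in APOE2 (165 UMIs), a ratio of 1.55 [1.28, 1.88]. Lag3 was at 126 CPM in APOE4 (152 UMIs) and 69 CPM in APOE2 (62 UMIs), a ratio of 1.83 [1.35, 2.5].

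Ctla4 had the opposite direction in the CD4+ name, at 1328 CPM in APOE4 (1599 UMIs) and 1855 CPM in APOE2 (1667 UMIs), a ratio of 0.716 [0.668, 0.767], short of 1.5-fold. Havcr2 had a ratio of 0.884 [0.627, 1.25] and Tox of 0.97 [0.765, 1.23], and both intervals held 1. Cd160 had 6 UMIs in APOE4 and 1 in APOE2, and Tigit 11 in APOE4 and 5 in APOE2. At 1500 UMIs Ctla4 was seen in 55.5% of APOE4 and 73.2% of APOE2 cells.

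Foxp3, the regulatory T cell factor, moved with Ctla4 between the libraries. At 1500 UMIs a Foxp3 UMI was seen in 25% of APOE4 and 46.1% of APOE2 cells of the CD4+ name. Among the 118 APOE4 and 140 APOE2 cells with any Foxp3 UMI, Ctla4 was at 1881 CPM in APOE4 and 2220 CPM in APOE2, a ratio of 0.847 [0.78, 0.92]. Among the 185 APOE4 and 97 APOE2 cells without one it was at 849 CPM in APOE4 and 1168 CPM in APOE2, a ratio of 0.727 [0.635, 0.832]. Ctla4 was lower in APOE4 on both sides of the split. Detection of Foxp3 depended on depth, since without thinning 38.9% of APOE4 and 59.1% of APOE2 cells had a UMI. Cells without one may still express Foxp3, so the split cannot hold the share of such cells equal between the libraries.

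Within the CD4+ name, the Lag3 ratio was the higher in cells without a Foxp3 UMI, at 126 CPM in APOE4 and 38.5 CPM in APOE2 (81 UMIs in APOE4, 12 in APOE2), a ratio of 3.26 [1.77, 6.58]. In those with one its ratio was 1.49 [1.02, 2.18]. Pdcd1 had a ratio of 1.41 [1.04, 1.92] with and 1.31 [1.02, 1.69] without a Foxp3 UMI. Whether these ratios differ between the sides of the split was not tested.

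A CD4 T gate (a Cd3 UMI, a Cd4 UMI and no Cd8 UMI) held 204 APOE4 and 290 APOE2 cells and gave other calls. Ctla4 stood there at 904 CPM in APOE4 and 844 CPM in APOE2, a ratio of 1.07 [0.999, 1.15], and Pdcd1 had a ratio of 1.03 [0.867, 1.22]. Lag3 had a ratio of 1.53 [1.18, 1.98]. In APOE2 the gate takes in 49 cells of the CD8+ name and 77 of the name Diverse. It leaves out the cells of the CD4+ name with neither a Cd4 nor a Cd8 UMI, 143 in APOE4 and 122 in APOE2.

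**Figure D4:**
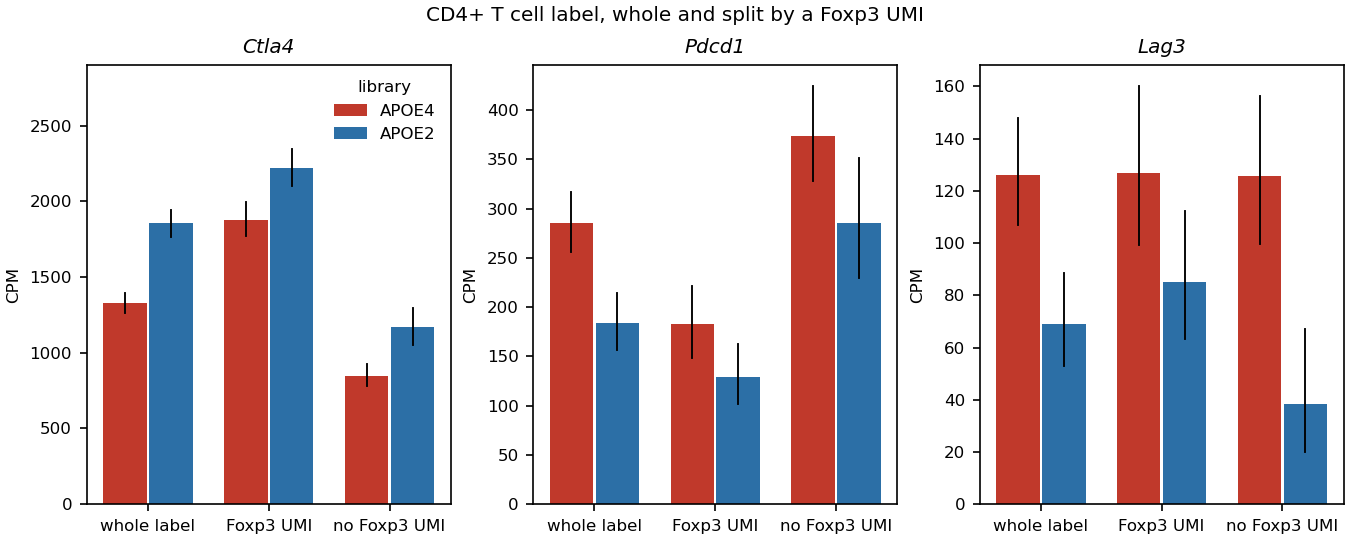
CPM of Ctla4, Pdcd1 and Lag3 in the CD4+ T cell name, whole and split by a Foxp3 UMI, with APOE4 left of APOE2 and exact 95% counting intervals. Ctla4 is lower in APOE4 in all 3 sets, at 1881 CPM in APOE4 and 2220 CPM in APOE2 in cells with a Foxp3 UMI, while Pdcd1 and Lag3 are higher in APOE4 in all 3.

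In the cycling cells named Ki67+ CD8+, 3 of 6 measured members were higher and 1 was lower, beside 12.1% higher and 9.73% lower of all genes. Pdcd1 was at 201 CPM in APOE4 and 83.4 CPM in APOE2 (ratio 2.41 [1.79, 3.28]), and Lag3 at 123 CPM in APOE4 and 49.5 CPM in APOE2 (ratio 2.48 [1.69, 3.73]). In the 31 APOE4 and 4 APOE2 cells with Cd8 and without Cd4 UMIs Pdcd1 had a ratio of 5.24 [2.01, 19.5], and in the 12 APOE4 and 16 APOE2 cells with Cd4 and without Cd8 UMIs 0.73 [0.409, 1.28]. Tox was at 157 CPM in APOE4 and 73.5 CPM in APOE2 (ratio 2.13 [1.55, 2.98]). Ctla4 was lower, at 445 CPM in APOE4 and 742 CPM in APOE2 (ratio 0.599 [0.526, 0.682]). Foxp3 moved with these values: in the 61 APOE4 and 26 APOE2 cells without a Foxp3 UMI, Ctla4 had a ratio of 1.99 [1.39, 2.91] and Pdcd1 of 4.82 [2.96, 8.31]. Fewer than 30 APOE2 cells enter that reading. In the 13 APOE4 and 25 APOE2 cells with one, Ctla4 had a ratio of 0.846 [0.727, 0.982].

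In the NKT cell name, with 130 APOE4 and 80 APOE2 cells, 0 of the 5 measured members were higher and 0 lower, beside 13.7% higher and 9.58% lower of all genes. Cd160 was highest here of all names in both libraries, at 163 CPM in APOE4 (88 UMIs) and 205 CPM in APOE2 (68 UMIs), a ratio of 0.797 [0.574, 1.11]. In APOE4 its CPM range of 131 to 201 overlapped that of the CD8+ name, 121 to 156. Tox had a ratio of 0.992 [0.644, 1.55], Pdcd1 of 0.821 [0.400, 1.72], Lag3 of 1.16 [0.49, 2.96] and Ctla4 of 0.764 [0.436, 1.35]. All 5 intervals held 1.

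In NK cluster 2, the larger NK name with 631 APOE4 and 214 APOE2 cells, 2 of 6 measured members, Pdcd1 and Lag3, were at least 1.5-fold lower in APOE4 and 1 was higher. Of all genes there, 6.79% were lower and 12.1% higher. Lag3 was at 37.3 CPM in APOE4 (94 UMIs) and 57.9 CPM in APOE2 (64 UMIs), a ratio of 0.644 [0.464, 0.899]. Cd160, found on cytotoxic lymphocytes, was at 84.5 CPM in APOE4 (213 UMIs) and 120.4 CPM in APOE2 (133 UMIs), a ratio of 0.702 [0.562, 0.878]. Ctla4 was at 69 CPM in APOE4 and 96 CPM in APOE2, a ratio of 0.719 [0.562, 0.925]. The intervals of all 3 lay below 1, the reverse of Lag3 in the T cell names CD8+, CD4+ and Ki67+ CD8+.

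Pdcd1 was scarce in NK cluster 2, at 3.17 CPM in APOE4 (8 UMIs) and 29 CPM in APOE2 (32 UMIs), a ratio of 0.11 [0.0436, 0.243]. It was concentrated in few cells, since a single cell held up to 6 of the 8 UMIs in APOE4 and up to 7 of the 32 in APOE2. T cell transcripts moved with it: Cd3e was at 2.38 CPM in APOE4 and 14.5 CPM in APOE2, and the 6 T cell markers summed to 79 CPM in APOE4 and 148 CPM in APOE2. In the 581 APOE4 and 193 APOE2 cells without a Cd3 UMI, Pdcd1 had 2 UMIs in APOE4 and 32 in APOE2, and Lag3 a ratio of 0.61 [0.43, 0.872]. A cell without a Cd3 UMI may still hold T cell RNA at this depth, and the source of these Pdcd1 and Lag3 UMIs was not tested. Tox had a ratio of 1.15 [0.849, 1.56]. Tigit, the member counted as higher, had 23 UMIs in APOE4 and 5 in APOE2, a ratio of 2.02 [0.75, 6.79].

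In NK cluster 1, with 113 APOE4 and 33 APOE2 cells, 0 of 5 measured members were higher and 2 lower, beside 17.3% higher and 10.9% lower of all genes. The lower members were Pdcd1, with 11 UMIs in APOE4 and 10 in APOE2, and Ctla4, with 31 in APOE4 and 20 in APOE2. Their ratios were 0.469 [0.181, 1.23] and 0.661 [0.365, 1.22], and both intervals held 1. Each turned direction under 1 other setting given in the closing section, for Pdcd1 with too few cells to count as measured. Lag3 was at 65 CPM in APOE4 and 87.8 CPM in APOE2, a ratio of 0.741 [0.409, 1.38].

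Among 18 other inhibitory or paired receptors, 12 were measured in the CD8+ name, of which 6 were higher in APOE4 and 1 lower, beside 12.9% higher and 11.1% lower of all genes, with a median log2 ratio of 0.50. The highest ratios in the whole name were those of Klrd1 and Klrc1, the subunits of the CD94/NKG2A receptor, at 2.05 [1.8, 2.35] and 1.88 [1.49, 2.39], of the interleukin-10 receptor gene Il10ra at 1.8 [1.28, 2.58], and of Cd96 at 1.77 [1.18, 2.76]. Btla, another receptor for HVEM, was lower at 0.182 [0.0721, 0.439], from 10 UMIs in APOE4 and 14 in APOE2. Among Cd8 cells alone 4 of 11 were higher and 0 lower, beside 20.7% higher of all genes. There Klrd1 had a ratio of 1.47 [1.25, 1.75] and Klrc1 of 1.17 [0.894, 1.55], both within 1.5-fold, Il10ra of 1.53 [0.969, 2.54] and Cd96 of 1.73 [0.964, 3.4]. Btla had too few UMIs there to be measured. In the CD4+ name 3 of 12 were higher and 3 lower, beside 9.69% higher and 7.64% lower of all genes. Klrd1 had a ratio of 3.68 [2.09, 6.91] in that name, while Cd200r1, an inhibitory receptor for CD200, had 0.413 [0.258, 0.652] and Klrg1, a receptor of differentiated T and NK cells, 0.54 [0.456, 0.638].

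Of 16 factors of exhaustion and activation, 14 were measured in the CD8+ name, with 6 higher and 3 lower in APOE4, beside 12.9% and 11.1% of all genes, and a median log2 ratio of 0.47. Higher were Irf4 at 2.99 [1.52, 6.73], the antigen receptor response genes Nr4a2 at 2.04 [1.78, 2.34] and Nr4a1 at 1.8 [1.43, 2.3], and Tbx21, the gene of T-bet, at 1.63 [1.14, 2.4]. Lower were Ikzf2 (Helios) at 0.518 [0.42, 0.64], Tcf7 at 0.577 [0.43, 0.781] and Prdm1 (Blimp-1) at 0.631 [0.417, 0.977]. Among Cd8 cells alone 7 of 14 factors were higher and 1 lower, beside 20.7% and 13.2% of all genes. Irf4, Nr4a2 and Nr4a1 had ratios of 2.83 [1.07, 10.6], 1.85 [1.53, 2.26] and 2.18 [1.5, 3.28] there, and Tbx21 of 1.45 [0.887, 2.54]. Tcf7 was the lower one, at 80.7 CPM in APOE4 and 154 CPM in APOE2, a ratio of 0.522 [0.35, 0.804]. Ikzf2 had 0.791 [0.559, 1.15] and Prdm1 0.669 [0.369, 1.31] among these cells, and both intervals held 1. Of 8 signalling partners 1 was higher in the whole name and 0 lower, beside 12.9% and 11.1% of all genes. Their median log2 ratio was -0.04. The higher one was Ptpn6, the gene of the phosphatase SHP-1 that inhibitory receptors recruit, at 1.63 [1.2, 2.25], and the other 7 lay within 1.5-fold. Among Cd8 cells 3 of 8 were higher and 0 lower, beside 20.7% and 13.2% of all genes. Ptpn6 was at 2.05 [1.24, 3.64] there, and Zap70 and the phosphatase gene Ptpn11 also passed 1.5-fold, at 1.86 [1.2, 3.04] and 1.89 [0.93, 4.46].

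Several receptors were also abundant outside T and NK cells. Lag3 was highest in plasmacytoid dendritic cells (pDCs, which make type I interferon) in both libraries, at 462 CPM in APOE4 (785 UMIs) and 391 CPM in APOE2 (348 UMIs), a ratio of 1.18 [1.04, 1.35]. The CD8+ name came next, with intervals that did not overlap those of pDCs in either library. The pDC marker Siglech was present there at 1898 CPM in APOE4 and 2135 CPM in APOE2, while Cd3e was at 10.6 CPM in APOE4 and 2.25 CPM in APOE2. Myeloid names together, pDCs included, held 42.1% of all Lag3 UMIs in APOE4 and 60.1% in APOE2.

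Havcr2 was mainly a myeloid transcript, since myeloid names held 74.7% of its UMIs in APOE4 and 86.4% in APOE2. It was at 169 CPM in APOE4 and 130.1 CPM in APOE2 in Monocytes 1, a ratio of 1.3 [1.13, 1.49], and at 157 CPM in APOE4 and 166 CPM in APOE2 in cDC 1, a ratio of 0.946 [0.785, 1.14]. These were its highest names in both libraries. In Mø cluster 1 it was at 104 CPM in APOE4 and 63.9 CPM in APOE2, a ratio of 1.63 [1.38, 1.91]. Summed over monocytes and macrophages, Havcr2 had a ratio of 1.59 [1.46, 1.72]. The other names measured had ratios of 1.09 [0.913, 1.3] in Monocytes 2, 0.762 [0.541, 1.07] in Monocytes 3 and 1.45 [1.02, 2.04] in Mø cluster 2. Of the single monocyte and macrophage names measured, only Mø cluster 1 passed 1.5-fold. The sum mixes names in unlike numbers, with 526 APOE4 and 206 APOE2 cells in Monocytes 2.

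Pdcd1 in migratory dendritic cells was at 53.1 CPM in APOE4 (63 UMIs) and 58.3 CPM in APOE2 (104 UMIs), a ratio of 0.912 [0.656, 1.26]. In cDC 2, Pdcd1 had a ratio of 3.13 [2.07, 4.85], Lag3 3.17 [2.05, 5.0] and Ctla4 4.21 [2.62, 6.98], where the 6 T cell markers summed to 177 CPM in APOE4 and 41.7 CPM in APOE2. In the 257 APOE4 and 395 APOE2 cDC 2 cells without a Cd3 UMI, Pdcd1 was at 5.0 CPM in APOE4 and 4.38 CPM in APOE2, a ratio of 1.14 [0.515, 2.47], and Ctla4 had 1.19 [0.339, 3.9]. Both of these intervals held 1. Lag3 was at 12.7 CPM in APOE4 and 6.81 CPM in APOE2 in these cells, a ratio of 1.86 [1.09, 3.2], above 1.5-fold.

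The ligands are introduced with the sequence at the start of their genes. Cd274 (chr19:29367455-29388095, + strand) and Pdcd1lg2 (chr19:29410919-29471161, + strand) lie on the same chromosome in GENCODE M21 on mm10, and Lgals9 lies at chr11:78962974-78984946 (- strand). The windows run from 250 bases before to 50 after the start in RefSeq (build GRCm38.p6), on the gene's strand: Cd274 at chr19:29367188-29367487 (+), Pdcd1lg2 at chr19:29410669-29410968 (+) and Lgals9 at chr11:78984875-78985174 (-). Capitals mark matches, on either strand, to GAAANNGAA (a core of interferon response elements) or to TTCNNNGAA and TTCNNNNGAA (spacings of STAT sites), and no matches overlapped.
Cd274: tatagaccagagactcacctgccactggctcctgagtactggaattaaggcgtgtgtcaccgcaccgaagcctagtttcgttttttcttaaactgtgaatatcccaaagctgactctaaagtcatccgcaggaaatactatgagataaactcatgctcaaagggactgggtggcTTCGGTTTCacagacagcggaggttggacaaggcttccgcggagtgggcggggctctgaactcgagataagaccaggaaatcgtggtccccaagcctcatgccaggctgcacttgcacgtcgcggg
Pdcd1lg2: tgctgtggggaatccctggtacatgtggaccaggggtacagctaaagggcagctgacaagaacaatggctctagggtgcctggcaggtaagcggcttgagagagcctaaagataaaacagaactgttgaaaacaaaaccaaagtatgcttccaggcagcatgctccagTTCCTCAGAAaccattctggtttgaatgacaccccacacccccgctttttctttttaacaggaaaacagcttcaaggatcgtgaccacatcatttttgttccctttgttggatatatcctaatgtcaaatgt
Lgals9: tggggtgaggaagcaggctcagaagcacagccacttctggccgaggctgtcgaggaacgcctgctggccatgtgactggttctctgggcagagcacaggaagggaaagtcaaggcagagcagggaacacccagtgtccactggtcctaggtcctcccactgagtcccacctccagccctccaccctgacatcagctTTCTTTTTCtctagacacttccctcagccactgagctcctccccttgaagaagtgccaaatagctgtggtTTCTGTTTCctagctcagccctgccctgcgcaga
Cd274 held 1 GAAANNGAA match, read as TTCGGTTTC on this strand, with its first base 76 bases before the start. Lgals9 held 2, TTCTTTTTC with its first base 54 before the start and TTCTGTTTC at base 17 after it, and Pdcd1lg2 held 0. Of the 32851 promoter windows in the table, 8.56% held GAAANNGAA. Pdcd1lg2 held 1 TTCNNNNGAA match, TTCCTCAGAA, 82 bases before the start, a motif in 6.95% of windows. Of the 8 members with a window, Ctla4 also held a GAAANNGAA match and Cd160 a TTCNNNGAA match, a motif in 8.3% of windows. Lag3 and Tox were not analysed here for motifs. A match describes letters only.

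Cd274, the gene of PD-L1, was higher in APOE4 in the 5 monocyte and macrophage names with enough cells. In Monocytes 1 it was at 61.7 CPM in APOE4 and 23.6 CPM in APOE2 (ratio 2.61 [1.97, 3.49]), in Monocytes 2 at 165 CPM in APOE4 and 93.5 CPM in APOE2 (ratio 1.76 [1.47, 2.12]) and in Monocytes 3 at 28.4 CPM in APOE4 and 13 CPM in APOE2 (ratio 2.19 [1.12, 4.6]). In Mø cluster 1 it was at 53.7 CPM in APOE4 and 18.2 CPM in APOE2 (ratio 2.95 [2.26, 3.86]), and in Mø cluster 2 at 67.8 CPM in APOE4 and 42.7 CPM in APOE2 (ratio 1.59 [1.24, 2.03]). All 5 intervals lay above 1. Of all genes, 10.1%, 6.73%, 9.25%, 8.94% and 7.80% were at least 1.5-fold higher in these names, in the same order.

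Summed over the monocytes and macrophages, Cd274 was at 89.2 CPM in APOE4 (1092 UMIs) and 31.7 CPM in APOE2 (512 UMIs), a ratio of 2.82 [2.53, 3.13]. Of the 3 ligands, 2 were higher in the sum and 0 lower, beside 8.12% higher and 14.9% lower of all genes. The Cd274 log2 ratio was 1.49 in the sum and 0.98 with each name weighted equally. Monocytes 2, the name of these highest in Cd274, had 526 APOE4 and 206 APOE2 cells. At 1500 UMIs a Cd274 UMI was seen in 11.7% [10.1, 13.4] of APOE4 and 4.33% [3.41, 5.4] of APOE2 cells, and without thinning in 35.1% of APOE4 and 18.3% of APOE2 cells. In the CD8+, CD4+ and NKT names together Cd274 was at 62.6 CPM in APOE4 and 64.7 CPM in APOE2, a ratio of 0.967 [0.766, 1.23]. Of the single T cell names, NKT had a ratio of 1.75 [0.911, 3.59] and Ki67+ CD8+ of 2.69 [1.47, 5.26].

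Among dendritic cells, Cd274 was at 99 CPM in APOE4 and 43.5 CPM in APOE2 (ratio 2.28 [1.89, 2.74]) in cDC 2 and at 26.5 CPM in APOE4 and 3.37 CPM in APOE2 (ratio 7.86 [2.52, 39.6]) in pDCs, the last from 45 UMIs in APOE4 and 3 in APOE2. Of all genes, 10.8% were higher in cDC 2 and 10.5% in pDCs. In migratory dendritic cells, which carry antigen to lymph nodes, it was at 418 CPM in APOE4 and 323 CPM in APOE2 (ratio 1.29 [1.15, 1.46]), and in cDC 1 at 39.5 CPM in APOE4 and 38.5 CPM in APOE2 (ratio 1.03 [0.696, 1.5]). Cd274 thus passed 1.5-fold in 2 of these 4 names. In cDC 2 cells without a Cd3 UMI its ratio was 2.23 [1.83, 2.72]. The name Monocytic DCs is not counted among them, since its 2 cell cycle markers summed to 1197 CPM in APOE4 and 1157 CPM in APOE2 and its monocyte and macrophage markers summed to 4964 CPM in APOE4 and 8386 CPM in APOE2. Cd274 was there at 40.2 CPM in APOE4 and 25 CPM in APOE2 (ratio 1.61 [1.21, 2.14]), where 8.09% of all genes were higher.

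M-MDSC 2 had the highest Cd274 level of all names in both libraries, at 723 CPM in APOE4 (260 UMIs) and 577 CPM in APOE2 (36 UMIs), a ratio of 1.25 [0.882, 1.83]. M-MDSC 1 was at 374 CPM in APOE4 (299 UMIs) and 265 CPM in APOE2 (234 UMIs), a ratio of 1.41 [1.19, 1.68], and G-MDSC 1 had a ratio of 0.886 [0.404, 1.91]. Summed over the MDSC names the ratio was 1.81 [1.57, 2.09], and 1 ligand was higher and 1 lower there, beside 12.1% higher and 12.5% lower of all genes. None of the 3 names with enough cells passed 1.5-fold, and with names weighted equally the log2 ratio was 0.35. M-MDSC 2 held 190 APOE4 and 36 APOE2 cells.

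**Figure D5:**
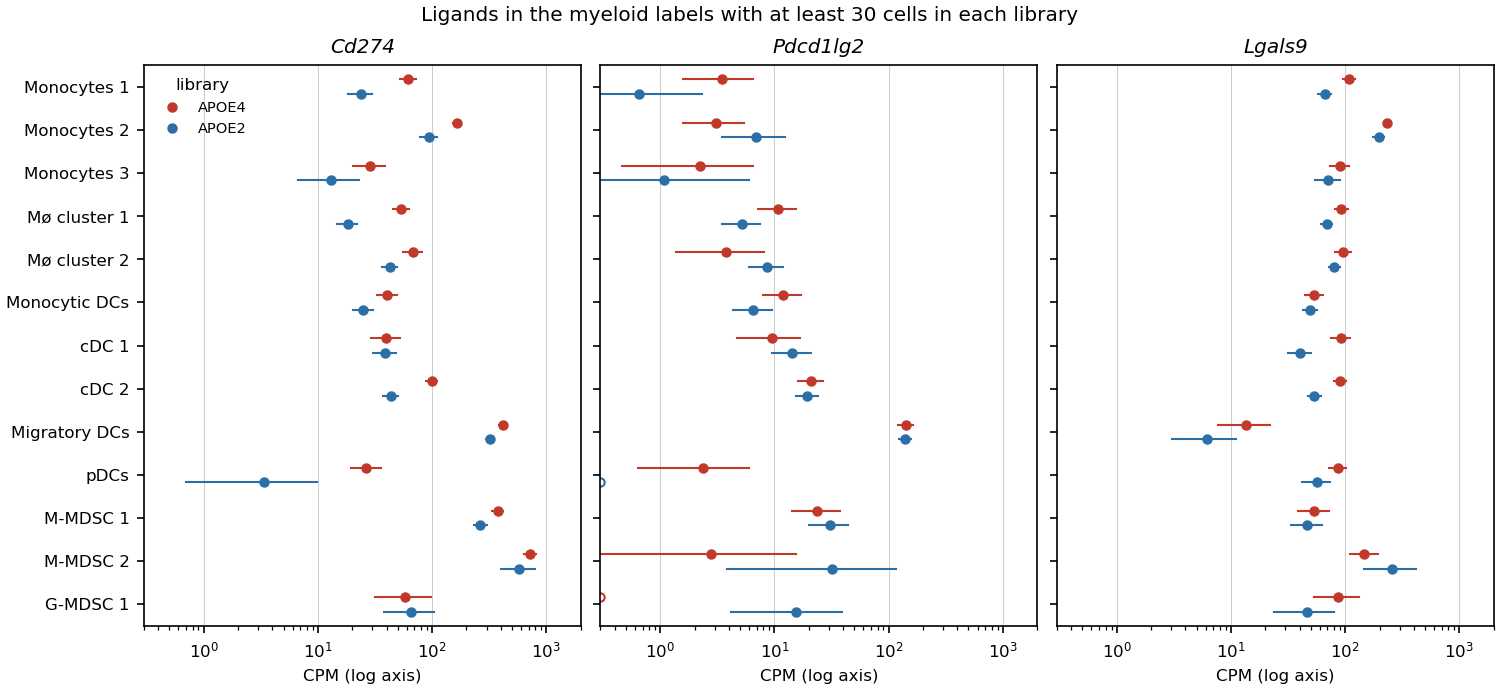
CPM (log axis) of the 3 ligands in the myeloid names with at least 30 cells in each library, with the APOE4 point above the APOE2 point and exact 95% counting intervals as lines; an open circle at the left edge is a count of 0. Cd274 is at 53.7 CPM in APOE4 and 18.2 CPM in APOE2 in Mø cluster 1, and Pdcd1lg2 is highest in migratory dendritic cells of both libraries (142 CPM in APOE4 and 139.5 CPM in APOE2).

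Lgals9, the gene of galectin-9, was higher in APOE4 in several dendritic names, with a ratio of 1.08 [0.86, 1.35] in Monocytic DCs. In cDC 1 it had 106 UMIs in APOE4 and 78 in APOE2 (CPM ratio 2.28 [1.68, 3.09]), in cDC 2 it was at 89.6 CPM in APOE4 and 53.7 CPM in APOE2 (ratio 1.67 [1.4, 2.0]) and in pDCs at 85.9 CPM in APOE4 and 56.1 CPM in APOE2 (ratio 1.53 [1.1, 2.16]). In migratory dendritic cells it had 16 UMIs in APOE4 and 11 in APOE2, a ratio of 2.19 [0.954, 5.22]. Of all genes, 8.65% were higher in cDC 1 and 10.3% in migratory dendritic cells. Over the dendritic class the ratio was 1.84 [1.61, 2.11], and of the 3 ligands 1 was higher and 0 lower, beside 10.7% higher and 7.28% lower of all genes.

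In monocytes and macrophages Lgals9 was at 139.8 CPM in APOE4 (1712 UMIs) and 80.3 CPM in APOE2 (1298 UMIs), a ratio of 1.74 [1.62, 1.87]. By name, Monocytes 1 passed 1.5-fold, at 109 CPM in APOE4 and 66 CPM in APOE2 (ratio 1.65 [1.37, 1.98]). The other 4 did not, with ratios of 1.18 [1.03, 1.34] in Monocytes 2, 1.28 [0.935, 1.75] in Monocytes 3, 1.35 [1.14, 1.59] in Mø cluster 1 and 1.18 [0.97, 1.43] in Mø cluster 2. With names weighted equally the log2 ratio was 0.36, which is within 1.5-fold, against 0.80 for the sum. In M-MDSC 2 Lgals9 was lower at 0.575 [0.323, 1.08], where 15.8% of all genes were lower, and in G-MDSC 1 higher at 1.88 [0.885, 4.2], where 13.0% were higher. Both of these intervals held 1.

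Pdcd1lg2, the gene of PD-L2, did not pass 1.5-fold in migratory dendritic cells, its highest name in both libraries, at 142 CPM in APOE4 (168 UMIs) and 139.5 CPM in APOE2 (249 UMIs), a ratio of 1.02 [0.83, 1.24]. In cDC 2 the ratio was 1.07 [0.76, 1.5], and over monocytes and macrophages 0.97 [0.679, 1.38], from 58 UMIs in APOE4 and 79 in APOE2. It was higher in Mø cluster 1 at 2.06 [1.18, 3.62] and in Monocytic DCs at 1.82 [1.05, 3.18]. It was counted as lower in Monocytes 2, Mø cluster 2 and cDC 1, beside 10.5%, 8.53% and 8.93% of all genes, with intervals that held 1. Over the MDSC names it was lower, with 20 UMIs in APOE4 and 35 in APOE2, a ratio of 0.523 [0.286, 0.932]. Of these names it was measured in M-MDSC 1 alone, at 23.8 CPM in APOE4 and 30.6 CPM in APOE2, which is within 1.5-fold. The sum mixes names in unlike numbers, with 190 APOE4 and 36 APOE2 cells in M-MDSC 2.

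Among 20 other ligands and partners, 14 were measured in monocytes and macrophages, with 2 higher and 1 lower in APOE4, beside 8.12% and 14.9% of all genes. Tnfrsf14 had the highest ratio, 3.21 [1.68, 6.47], from 34 UMIs in APOE4 and 14 in APOE2. H2-T23, which encodes Qa-1, the ligand of the CD94/NKG2A receptor above, was at 582 CPM in APOE4 and 236 CPM in APOE2, a ratio of 2.46 [2.37, 2.56]. The lower gene was Cd200, at 0.633 [0.367, 1.06]. In dendritic cells 3 of 16 were higher and 4 lower, beside 10.7% and 7.28%. There H2-Q10 had a ratio of 1.86 [1.38, 2.51], H2-T23 of 1.79 [1.72, 1.87] and Tnfrsf14 of 1.6 [0.674, 3.89]. The costimulatory ligands Cd70, Tnfsf4, Tnfsf9 and Cd80 had ratios of 0.37 [0.25, 0.534], 0.462 [0.359, 0.59], 0.466 [0.417, 0.521] and 0.643 [0.579, 0.714]. By name, H2-T23 passed 1.5-fold in cDC 2 alone, at 1.83. It had 1.4 in cDC 1, 1.49 in migratory dendritic cells and 1.27 in pDCs. Cd80 had 0.576 in cDC 2, 0.686 in cDC 1 and 0.978 in migratory dendritic cells. Tnfsf9 had 0.462 in cDC 2 and 0.602 in migratory dendritic cells, but 1.15 in cDC 1 and 1.57 in pDCs. Cd70 and Tnfsf4 were lower wherever measured. The sum mixes names in unlike numbers, with 205 APOE4 and 111 APOE2 cells in pDCs, the name of these highest in H2-T23. In the MDSC class 2 of 11 were higher, with H2-T23 at 2.91 [2.49, 3.42], and 2 lower, beside 12.1% and 12.5%. The median log2 ratio of the list was 0.08 in monocytes and macrophages, 0.05 in dendritic cells and -0.04 in the MDSC class, beside -0.07, 0.08 and -0.00345 over all genes.

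The genes whose levels ran most like each member were taken over 22 names, each library a point of its own (44 points, 10704 genes, Pearson's r of log2(CPM + 1)). This is a description, since the points share 2 libraries and their depth. Pdcd1 ran with Cd3d (r = 0.90), a subunit of the T cell receptor complex, and Tox with Zap70 (r = 0.98), a kinase of that receptor. Ctla4 ran with Tnfrsf18 (r = 0.91), the GITR gene, Cd160 with Klrc1 (r = 0.95) and Lag3 with Sla2 (r = 0.91). Havcr2 ran with Agpat4 (r = 0.79), Cd274 with Gdap10 (r = 0.80), Pdcd1lg2 with Traf1 (r = 0.81) and Lgals9 with Samd9l (r = 0.78). Tigit, with 78 UMIs in the APOE4 library and 34 in the APOE2 library, was too scarce for a pattern to be read.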

How the data were processed

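Droplet 3' RNA-seq was read from 2 count matrices, 1 per genotype. The deposited values are raw UMI counts per gene and barcode, made with Cell Ranger 3.0.1 per the file headers and with build mm10 per the submitters' processing notes. The matrices held 5689 APOE4 and 5063 APOE2 barcodes with 37349222 and 41207514 UMIs. The cells kept, their cell type names and their mitochondrial percent come from the authors' deposited cell table, which names a clustering at resolution 0.8 per the file headers; the submitters' processing notes list Seurat 3.0.2. Of the cells, 48.6% had exactly the deposited UMI total, and the others lacked at most 0.89% of their UMIs in it.

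Counts were summed per library and name, divided by the summed UMIs of the same cells and scaled to CPM. Ratios of CPM have exact conditional binomial intervals, CPM exact Poisson intervals and shares exact Clopper-Pearson intervals (scipy 1.17.1). Ratios of shares have approximate intervals, taken as normal on the log scale, which are rough where few cells had a UMI. All are of counting error only, since UMIs of 1 library say nothing of the spread between mice. With 1 library per genotype there is no test and no p-value. Thinning drew UMIs without replacement (seed 0). Scrublet (through scanpy 1.11.5) called 3 of 5385 APOE4 cells and 0 of 4665 APOE2 cells as doublets, too few to be credited, so the 5% of cells with the highest scores were left out as an alternative (270 APOE4 and 234 APOE2 cells). The ratio and interval code was tested on simulated counts.

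The members, the lists of other receptors, ligands, factors and partners, and the markers were chosen with earlier results of these data known. The text names all 10 members and, of each list, up to 4 genes per direction, not always those with ratios farthest from 1. Among Cd8 cells it gives mainly the genes named for the whole CD8+ name. Promoter windows are from RefSeq (GRCm38.p6), where 8 of the 10 members matched by symbol, and gene positions from GENCODE M21. Alternatives were cell weighting, scaling, thinning, a mitochondrial limit, doublet scores, marker gates, UMI minimums, the fold and equal weights for names.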

Additional observations from a re-analysis of the deposited data

Results flagged for a closer look

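2 receptors had APOE4 over APOE2 ratios on opposite sides of 1 in different T and NK names, with intervals that excluded 1 on both sides. Lag3 had a ratio of 2.48 [1.69, 3.73] in the Ki67+ CD8+ T cell name and of 0.644 [0.464, 0.899] in NK cluster 2. Pdcd1 had a ratio of 2.41 [1.79, 3.28] in the Ki67+ CD8+ T cell name and of 0.11 [0.0436, 0.243] in NK cluster 2. For each gene the interval lay above 1 in 3 of the 6 names and below 1 in 1. The intervals hold counting error only, and with 1 pooled library per genotype the difference between names was not tested. The Ki67+ CD8+ name held Cd8 UMIs without Cd4 UMIs in 31 of 74 APOE4 cells and 4 of 51 APOE2 cells. In those cells alone Pdcd1 had a ratio of 5.24 [2.01, 19.5], from 163 UMIs in APOE4 and 4 in APOE2, and Lag3 had 93 UMIs in APOE4 and 0 in APOE2. In the 12 APOE4 and 16 APOE2 cells with Cd4 and without Cd8 UMIs, Pdcd1 had a ratio of 0.73 [0.409, 1.28], and Lag3 had 4 UMIs in APOE4 and 4 in APOE2. Fewer than 30 APOE2 cells enter each of these readings. In NK cluster 2, a single cell held up to 6 of the 8 Pdcd1 UMIs in APOE4 and up to 7 of the 32 in APOE2.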

How the results depend on the processing

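No paired analysis was possible because each genotype is 1 pooled library, and for the same reason no replicate could be left out. Of 195 values recomputed for the summary results, 174 counted as unchanged and 21 moved. A log2 ratio was unchanged if it shifted by less than the mean distance to the ends of its counting interval. For a median over members, the limit was the median of these distances over single members. A share ratio was unchanged inside its interval, and a count within 1.5 times. The settings reuse the same cells, so these limits measure no spread between mice. Over the 6 T and NK names, 9 of 33 member and name pairs were higher; 5 of 22 were with cells thinned to 1500 UMIs and 5 of 33 at a fold of 2. Lower were 5 of 33, against 3 of 22 with cells thinned to 1500 UMIs, 1 of 25 with cells under 5% mitochondrial UMIs, 8 of 32 without the highest doublet scores, 3 of 28 at a minimum of 50 UMIs and 2 at a fold of 2. Over the CD8+ and CD4+ names and the NK class, 1 of 17 was lower, and 3 of 21 with marker gates in place of names. Of 9 ligand and class pairs 4 were higher, against 2 with names weighted equally and 1 at a fold of 2, and 1 was lower, against 0 at a fold of 2. As reported, 9.69% to 17.3% of all genes were higher and 6.79% to 11.1% lower in the single T and NK names. In the 3 myeloid classes 8.12% to 12.1% were higher and 7.28% to 14.9% lower. Shares of all genes past the fold were not computed for the NK class or under these other settings. The counts for that class and under those settings therefore cannot be set against all genes. With names weighted equally, the log2 ratios in monocytes and macrophages were 0.98 for Cd274 and 0.36 for Lgals9, and in the MDSC class 0.35 for Cd274 and -0.28 for Lgals9, against 1.49, 0.80, 0.86 and 0.48 in the sums; Lgals9 in the MDSC class thus turned direction. Cd274 in monocytes and macrophages was 1.33 with cells under 5% mitochondrial UMIs, and Pdcd1lg2 in the MDSC class -2.39 with cells thinned to 1500 UMIs, against -0.93. The ratio of shares of cells with a Ctla4 UMI in the CD8+ name was 0.906, against 1.15 at 2500 UMIs and 1.28 among Cd8 cells. Without thinning, the share ratio in monocytes and macrophages was 1.92 for Cd274, against 2.71, and 1.32 for Lgals9, against 1.59. In NK cluster 1 the log2 ratio of Ctla4 turned to 0.41 with cells thinned to 1500 UMIs. That of Pdcd1 came to 0.84 with cells under 5% mitochondrial UMIs, where too few cells remained for it to count as measured. The minimums of cells and UMIs were not applied to either value. The cause of these shifts was not tested. The median log2 ratio over the members stayed within its limit, as set out above, in each name under each setting run. With cells under 5% mitochondrial UMIs too few remained in NK cluster 1 for a value. Counts limit Tigit most, with 78 UMIs in the APOE4 library and 34 in the APOE2 library, and Pdcd1 in NK cells.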
